A study of Mus musculus with 12 samples.

Results

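Of the Krüppel-like factor (KLF) genes measured in neonatal mouse skeletal muscle fibroblasts, 10 are described here (*Klf2*, *Klf3*, *Klf4*, *Klf5*, *Klf6*, *Klf7*, *Klf9*, *Klf10*, *Klf13* and *Klf15*). They were chosen by gene name, with earlier results of these data known. All 10 were listed in each of the 3 deposited tables, among 28995 genes listed in any of them. Fibroblasts came from the hindlimb muscles of 3-day-old wild-type mice of the C57 BL/10 strain (n = 2 mice), enriched by adherence and used at passage 2. The cells of each mouse were pooled, plated in medium with charcoal-stripped serum, which removes endogenous steroids, and treated for 48 hours with 1 µM aldosterone, 1 µM spironolactone or the DMSO vehicle alone, and the steroids were also given in DMSO. Poly(A) RNA of 2 plates per mouse and treatment was sequenced, giving 4 libraries per treatment and 12 in all, with 19136923 to 30219185 reads counted on genes per library. Each library carries a sample number and a biological replicate number, and it is not stated which number marks the mouse, so p-values measure the spread between plates of 2 mice. In what follows replicates 1 and 2 of each treatment have sample number 1, and replicates 3 and 4 have sample number 2.

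KLF factors are zinc-finger transcription factors that bind GC-rich and CACCC sequences in promoters and enhancers, and they differ mainly in the N-terminal parts that recruit cofactors. *Klf9*, *Klf10* and *Klf13* encode factors that can bind the Sin3 corepressor, *Klf3* encodes a repressor that binds the corepressor CtBP, and *Klf2*, *Klf4*, *Klf5*, *Klf6* and *Klf7* belong to a branch with strong activation domains. *Klf9* and *Klf15* are well known as genes induced by glucocorticoids, and *Klf15* as a regulator of amino acid catabolism in muscle and liver. Aldosterone is the main agonist of the mineralocorticoid receptor, which binds the same palindromic DNA element as the glucocorticoid receptor, and spironolactone is a synthetic steroid antagonist of it that carries a lactone ring which aldosterone lacks.

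Promoter sequences are shown for the 3 KLF genes with the largest increases under aldosterone and for *Klf4*, the KLF gene with the highest level per kilobase, whose groups overlapped. The 250 bases upstream of each RefSeq gene start are given 5′ to 3′ on the strand of the gene in GRCm38.p6, at chr6:90462326-90462575 on the plus strand for *Klf15*, chr19:23140976-23141225 on the plus strand for *Klf9*, chr7:63938916-63939165 on the minus strand for *Klf13* and chr4:55532476-55532725 on the minus strand for *Klf4*. Capitals mark CACCC and its complement GGGTG, the core letters of a CACCC box.
Klf15: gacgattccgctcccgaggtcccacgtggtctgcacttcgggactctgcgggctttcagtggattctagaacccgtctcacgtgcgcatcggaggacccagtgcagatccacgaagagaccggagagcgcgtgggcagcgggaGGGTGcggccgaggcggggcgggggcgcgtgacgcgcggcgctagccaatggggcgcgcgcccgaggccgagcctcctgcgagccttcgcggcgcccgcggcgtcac
Klf9: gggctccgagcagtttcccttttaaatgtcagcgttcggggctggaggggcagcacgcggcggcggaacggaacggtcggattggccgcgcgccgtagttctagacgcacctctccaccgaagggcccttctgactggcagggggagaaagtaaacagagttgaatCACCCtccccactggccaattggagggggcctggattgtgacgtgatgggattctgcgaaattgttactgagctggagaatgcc
Klf13: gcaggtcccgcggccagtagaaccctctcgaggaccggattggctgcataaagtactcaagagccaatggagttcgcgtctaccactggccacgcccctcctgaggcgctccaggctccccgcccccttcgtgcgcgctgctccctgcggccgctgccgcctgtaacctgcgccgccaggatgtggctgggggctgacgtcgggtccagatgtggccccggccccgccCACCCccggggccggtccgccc
Klf4: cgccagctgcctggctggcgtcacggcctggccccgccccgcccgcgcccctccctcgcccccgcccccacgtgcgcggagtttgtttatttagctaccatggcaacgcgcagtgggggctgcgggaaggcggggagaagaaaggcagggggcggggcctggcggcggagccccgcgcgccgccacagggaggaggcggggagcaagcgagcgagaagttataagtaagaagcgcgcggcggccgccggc
*Klf15*, *Klf9* and *Klf13* each held 1 CACCC box, at 107, 84 and 22 bases upstream of the start, and *Klf4* held 0. Such a box was found in 52.0% of the 32851 upstream windows of the same length in the table. The GC box GGGCGG, or its complement CCGCCC, was present 4 times for *Klf4*, 3 times for *Klf13*, 1 time for *Klf15* and 0 times for *Klf9*, and was in 32.7% of all windows. Neither the arm of the steroid hormone element, TGTTCT or AGAACA, nor the full palindrome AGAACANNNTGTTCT was found in any of the 8 KLF windows that the table holds, against 16.1% and 0.00913% of all windows. *Klf5* and *Klf10* had no entry. The windows shown were 72.0%, 59.6%, 71.6% and 74.0% G and C in the order printed, where the median of all windows was 52.4%. These are counts of letters in short windows and locate no bound site.

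Levels of the KLF genes in vehicle-treated fibroblasts spanned a wide range. Compared per kilobase of gene length in CPM, read counts scaled to a common library total, the order of the mean levels in vehicle was led by *Klf4* at 103 ± 5.53 (SD, n = 4), *Klf2* at 54.8 ± 6.24, *Klf6* at 32.6 ± 0.453 and *Klf3* at 17.6 ± 0.647 CPM per kilobase. Each of these 4 genes was separated from the next by a gap between libraries. *Klf13* (7.77 ± 1.02), *Klf9* (7.13 ± 1.34) and *Klf7* (5.27 ± 0.703 CPM per kilobase) followed with overlapping neighbors, then *Klf15* (3.26 ± 0.818) and *Klf10* (2.60 ± 0.122), which also overlapped, and *Klf5* was lowest at 1.20 ± 0.311 CPM per kilobase. In aldosterone-treated fibroblasts the places changed in the middle of the order. *Klf9* at 15.5 ± 1.43 and *Klf15* at 15.3 ± 4.26 CPM per kilobase stood between *Klf3* (16.7 ± 0.590) and *Klf13* (13.9 ± 0.491), and the libraries of neighbors in this run of 4 genes overlapped. In spironolactone-treated fibroblasts the order of the 10 means was that of vehicle. The summed level of the 10 genes was between 292 and 305 CPM per kilobase in the aldosterone libraries, above the 227 to 247 of vehicle and the 237 to 244 of spironolactone. *Klf15* made up 1.39% ± 0.330 of this sum in vehicle, 5.09% ± 1.37 in aldosterone and 1.80% ± 0.365 in spironolactone, and *Klf4* made up 43.8% ± 1.92, 36.3% ± 1.39 and 43.7% ± 0.937.

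**Figure D1:**
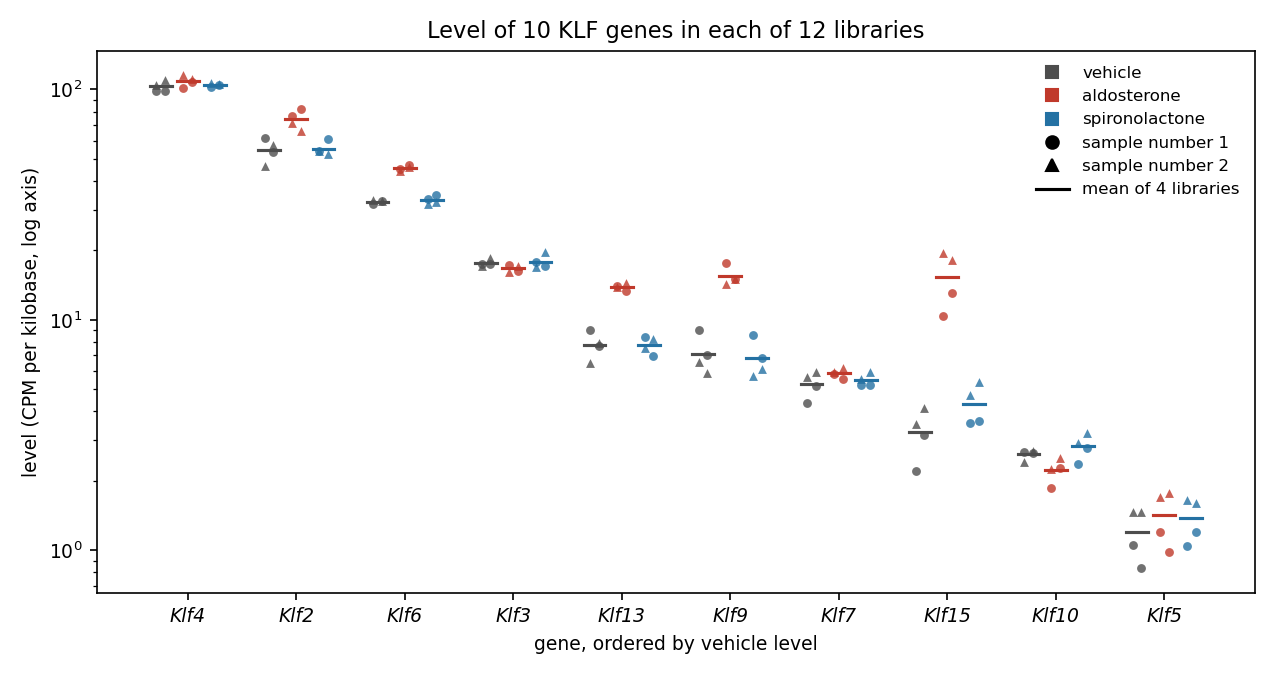
Level of each KLF gene (CPM per kilobase of gene length, log axis) in each of the 12 libraries, with genes ordered by their mean in vehicle. Points are libraries, circles for sample number 1 and triangles for sample number 2, and bars are means of 4 libraries. The red aldosterone points of *Klf15*, *Klf9*, *Klf13*, *Klf6* and *Klf2* lie above all vehicle and spironolactone points of the same gene.

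Aldosterone against vehicle asks which KLF genes respond to the steroid. Of the 10 genes, 5 were higher with aldosterone and 0 were lower, where a gene passed with an adjusted p no higher than 0.05 (limma on log2(normalized count + 1), Benjamini-Hochberg over all 27319 genes of that pair). Of all genes 10.4% passed, 5.68% as higher and 4.74% as lower. Among genes that averaged 10 or more normalized counts, as all of the KLF genes did, 17.7% passed. *Klf15* and *Klf9* also passed an absolute log2 fold change of 1, which 2.06% of all genes did. The 5 risers had no overlap of libraries between the groups, which was also so for 7.55% of all genes as higher, and for 12.4% of those that averaged 10 or more normalized counts. The median log2 fold change of the 10 KLF genes was 0.33, and that of all genes was -0.0064. The 10 genes were chosen with earlier results of these data known, so these shares and medians do not test the family. Of the 7 other KLF genes 0 passed, with a median log2 fold change of -0.16. In bulk RNA a change in the number of cells of one kind cannot be told apart from a change in RNA per cell. With the libraries of sample number 1 alone, 2 per treatment, 0 of the 10 genes passed, and 15 of all genes were higher and 2 lower. With sample number 2 alone 3 passed, namely *Klf15*, *Klf9* and *Klf6*, and of all genes 549 were higher and 339 lower.

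**Figure D2:**
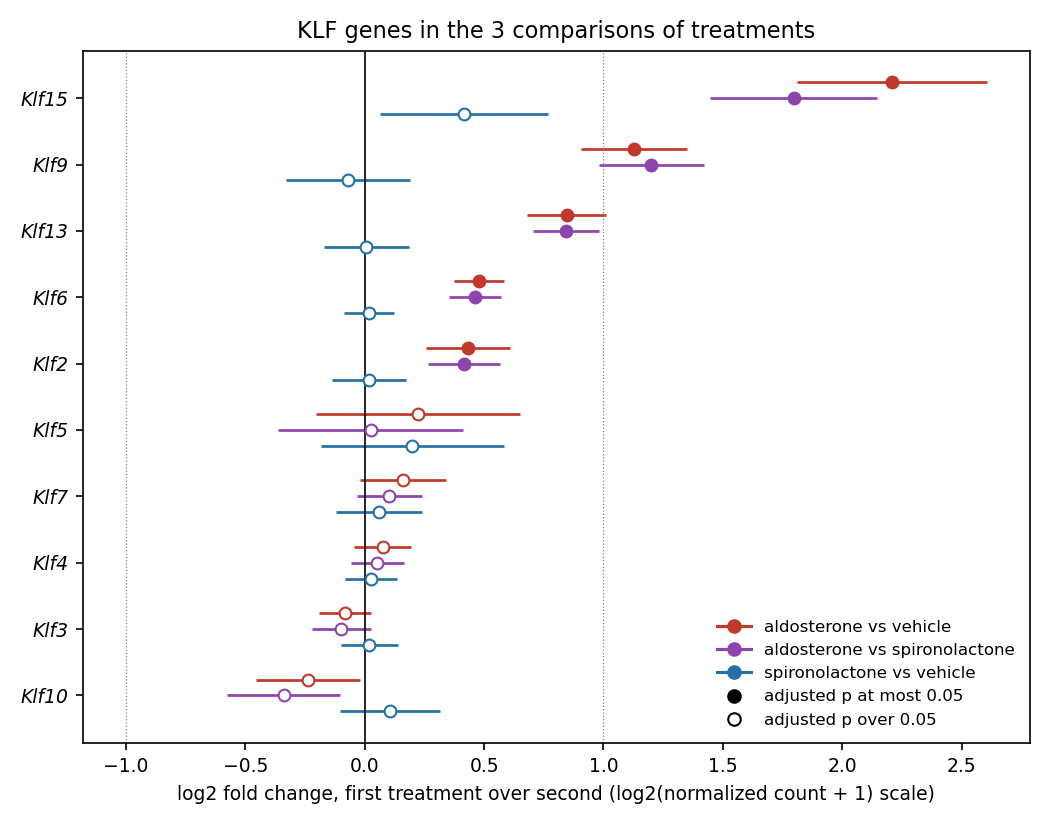
Log2 fold change of each KLF gene in the 3 comparisons of treatments, on the log2(normalized count + 1) scale, with 95% intervals from limma as lines. Filled points have an adjusted p of at most 0.05, open points do not, and dotted lines mark a log2 fold change of 1 in either direction. The 5 genes at the top have filled points in both comparisons with aldosterone, and all 10 points of spironolactone against vehicle are open.

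*Klf15* (ENSMUSG00000030087, chromosome 6 from 90439558 to 90452220 on the plus strand, in the positions of the deposited tables) had the largest change. Its level was 29.0, 36.6, 54.3 and 50.7 CPM in aldosterone replicates 1 to 4, and 6.16, 8.81, 9.87 and 11.6 CPM in the vehicle replicates. The lowest aldosterone library was thus above the highest vehicle library, with the larger values of each group in sample number 2. In normalized counts the means were 1012 ± 279 with aldosterone and 217 ± 53.9 with vehicle (SD, n = 4), a 4.62-fold difference with a 95% interval of 3.51 to 6.09. On the log2 scale it was 2.21 ± 0.187 (standard error, adjusted p = 4.71e-07 from limma). An exact permutation test on the 8 libraries gave p = 0.0286 (two-sided), the smallest p that 4 against 4 allow, and the same holds for the other 4 genes that rose. With sample number 1 alone the log2 fold change of *Klf15* was 2.14 and its adjusted p from limma 0.0827.

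Of the genes for Sin3-binding factors, *Klf9* and *Klf13* rose and *Klf10* did not pass. *Klf9* (ENSMUSG00000033863, chromosome 19 from 23118590 to 23145498, plus strand) was at 84.7, 72.3, 69.0 and 72.7 CPM in the aldosterone replicates and at 43.4, 34.0, 31.6 and 28.4 CPM in the vehicle replicates. In both groups replicate 1 was highest, and the groups were far apart. Its 2.19-fold increase (95% interval 1.87 to 2.55) was 1.13 ± 0.105 on the log2 scale (standard error), from 819 ± 155 to 1774 ± 172 normalized counts (adjusted p = 1.52e-06 from limma). *Klf13* (ENSMUSG00000052040, chromosome 7 from 63536099 to 63588663, minus strand), which encodes a close relative of the Klf9 protein also known for its role in T cells, had 106, 100.3, 105 and 109 CPM with aldosterone. Its vehicle replicates had 67.7, 57.8, 49.0 and 59.6 CPM, so the vehicle libraries were more spread than the aldosterone libraries and all lower. The change was 1.80-fold (95% interval 1.60 to 2.02), or 0.85 ± 0.078 on the log2 scale (standard error), from 1395 ± 179.8 to 2494 ± 81.7 normalized counts (adjusted p = 1.3e-06 from limma). It passed the adjusted p but not the fold change threshold. *Klf10* (ENSMUSG00000037465, chromosome 15 from 38291707 to 38300950, minus strand), an early gene of the response to TGF-β, was at 7.77, 9.49, 9.44 and 10.5 CPM with aldosterone and at 11.1, 11.1, 10.1 and 11.2 CPM with vehicle. The groups overlapped in a single pair of libraries. Its log2 fold change was -0.24 (adjusted p = 0.186, unadjusted p = 0.0333 from limma).

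In the branch with activation domains, *Klf6* and *Klf2* rose by smaller amounts. *Klf6* (ENSMUSG00000000078, chromosome 13 from 5911481 to 5920393, plus strand), a growth-restraining factor induced early after tissue injury, had 199, 206, 194 and 203 CPM with aldosterone and 140.4, 144, 145 and 144 CPM with vehicle. Its libraries were the least spread of the 10 genes within vehicle, with a coefficient of variation of 1.39%. The 1.39-fold increase was 0.48 ± 0.049 on the log2 scale (standard error, 95% interval 0.38 to 0.58, adjusted p = 4.12e-06 from limma). *Klf2* (ENSMUSG00000055148, chromosome 8 from 73072877 to 73075500, plus strand), best known as the shear-stress factor of endothelium and a quiescence factor of T cells, had 141, 152, 133 and 121 CPM with aldosterone and 113, 99.2, 86.4 and 106 CPM with vehicle. The groups lay close together without overlap. On the log2 scale the increase was 0.43 ± 0.083 (standard error, 1.35-fold, 95% interval 1.19 to 1.52, adjusted p = 0.00211 from limma). This call was the least firm of the 5. Without vehicle replicate 2 or 4, or without aldosterone replicate 1, 2 or 3, the adjusted p of *Klf2* was 0.0656, 0.0506, 0.0506, 0.0663 and 0.0593 in turn. With the plates of each sample number summed it was 0.0749 by edgeR, in a fit that does not match the sample numbers across treatments.

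*Klf4*, *Klf5* and *Klf7* of the same branch did not pass. *Klf4* (ENSMUSG00000003032, chromosome 4 from 55527143 to 55532466, minus strand), a factor of pluripotency and of epithelial and smooth muscle differentiation, ranged from 311 to 351 CPM with aldosterone and from 301 to 336 CPM with vehicle. Its log2 fold change of 0.08 had a 95% interval of -0.04 to 0.19, so this abundant gene was measured closely and a change of the size seen in *Klf6* lay outside its interval. *Klf7* (ENSMUSG00000025959, chromosome 1 from 64068606 to 64161441, minus strand), studied mainly in neurons, ranged from 44.9 to 50.4 CPM with aldosterone and from 35.3 to 48.4 CPM with vehicle. Its log2 fold change was 0.16 (95% interval -0.02 to 0.34, adjusted p = 0.310 from limma). *Klf5* (ENSMUSG00000005148, chromosome 14 from 99536127 to 99552472, plus strand), which promotes proliferation in epithelium and smooth muscle, was the least abundant of the 10 genes per kilobase. Its levels of 6.21, 5.11, 8.86 and 9.24 CPM with aldosterone and 5.49, 4.34, 7.58 and 7.61 CPM with vehicle split by sample number rather than by treatment. The log2 fold change of *Klf5* was 0.22 with a wide 95% interval of -0.20 to 0.65. For *Klf3* (ENSMUSG00000029178, chromosome 5 from 64960731 to 64990244, plus strand), the CtBP-binding repressor, aldosterone libraries had 181 to 194 CPM and vehicle libraries 192 to 209 CPM. Its log2 fold change was -0.08 with a 95% interval of -0.19 to 0.03. Strand use in the counting is not stated, and annotated genes overlap *Klf3*, *Klf7*, *Klf9* and *Klf13*. The most abundant of them, *Gm20033* opposite *Klf3*, had a median of 39 reads where *Klf3* had 4640.

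Aldosterone and spironolactone were compared at the same dose and time, and this comparison uses the same aldosterone libraries as the one above. The same 5 genes were higher with aldosterone and 0 were lower, where 8.88% of 27631 genes passed in either direction and 4.93% as higher, and *Klf15* and *Klf9* passed both thresholds, which 1.9% of all genes did. Of all genes 3.96% passed as lower, and 6.76% were higher without overlap of libraries. Among genes that averaged 10 or more normalized counts, 15.2% passed, 8.39% as higher, and 11.1% were higher without overlap. *Klf15* had 9.94, 10.2, 13.1 and 15.0 CPM in the spironolactone replicates, all below the lowest aldosterone library. Aldosterone over spironolactone was 1.80 ± 0.165 on the log2 scale for *Klf15* (standard error, 3.47-fold, 95% interval 2.73 to 4.42, adjusted p = 7.14e-07 from limma). For *Klf9*, with 41.5, 32.8, 27.4 and 29.4 CPM in the spironolactone replicates, it was 1.20 ± 0.104 (standard error, adjusted p = 3.68e-07 from limma). *Klf13* differed by 0.84 (adjusted p = 9.83e-08), *Klf6* by 0.46 (adjusted p = 7.78e-06) and *Klf2* by 0.42 (adjusted p = 0.000681) on the log2 scale, all from limma and all without overlap of libraries. *Klf2* was again lost when plates of a sample number were summed (adjusted p = 0.0714 by edgeR). *Klf10* had 9.90, 11.6, 12.2 and 13.4 CPM with spironolactone, and its log2 fold change of aldosterone over spironolactone was -0.34. The adjusted p of *Klf10* from limma was 0.0763, and 0.00868 in a fit with a replicate block on the sample number, where it passed as lower. That adjusted p was 0.262 by edgeR with the plates of each sample number summed, a fit that does not match the sample numbers across treatments. Log2 fold changes of the other 4 genes lay between -0.10 and 0.10 with adjusted p-values from 0.425 to 0.973. With sample number 1 alone 0 of the 10 genes passed, where of all genes 4 were higher and 0 lower. With sample number 2 alone 4 passed, namely *Klf15*, *Klf9*, *Klf13* and *Klf6*, where of all genes 555 were higher and 388 lower.

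Spironolactone against vehicle gave 0 KLF genes with an adjusted p up to 0.05 by limma, and 0 of 27598 genes in all (0%), while 1251 genes (4.53%) and 1 KLF gene, *Klf15*, had an unadjusted p under 0.05. DESeq2, edgeR and limma-voom on the recovered reads also called 0 KLF genes. *Klf15* was higher with spironolactone by 0.41 on the log2 scale, with a 95% interval of 0.06 to 0.77, which is 1.33-fold (1.05 to 1.70, unadjusted p = 0.0231 and adjusted p = 0.934 from limma). The 4 spironolactone libraries overlapped the 4 vehicle libraries (exact permutation test, two-sided p = 0.171), but within each sample number both spironolactone libraries were above both vehicle libraries. A replicate block on the sample number gave it an adjusted p of 0.05004, and a further block on the biological replicate number gave 0.0250, both from limma. In this last fit 77 of all genes were higher and 33 lower. With summed plates the adjusted p of *Klf15* was 0.9995 by edgeR, in a fit that does not match the sample numbers across treatments. The intervals of the others bound what could have been missed. *Klf6* had a 95% interval of -0.09 to 0.12, *Klf4* of -0.08 to 0.13 and *Klf3* of -0.10 to 0.14, and the widest were those of *Klf5* (-0.18 to 0.58) and *Klf9* (-0.33 to 0.19), all as log2 fold changes of spironolactone over vehicle. For *Klf9*, *Klf13*, *Klf6* and *Klf2* these intervals end below the estimates of the same genes for aldosterone over vehicle, as does that of *Klf15*.

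Several KLF genes also differed between the sample numbers. *Klf15* was higher in both libraries of sample number 2 than in both of sample number 1 within every treatment, with ratios of the mean CPM of 1.44 in vehicle, 1.60 in aldosterone and 1.40 in spironolactone. *Klf5* showed the same order with ratios of 1.55, 1.60 and 1.45, and *Klf7* (1.22, 1.07 and 1.10) and *Klf4* (1.09, 1.08 and 1.03) with smaller ones. *Klf9* went the other way, with ratios of 0.775 in vehicle and 0.765 in spironolactone, and in aldosterone its libraries overlapped (0.902). The response to aldosterone was then compared between the sample numbers in a model with an interaction term. None of the 10 KLF genes passed (0 after adjustment and 0 at an unadjusted p under 0.05 by limma, 0 after adjustment by edgeR), where 0.0146% of all genes did. The log2 fold change of aldosterone over vehicle was 2.14 in sample number 1 and 2.28 in sample number 2 for *Klf15*, 1.03 and 1.23 for *Klf9*, and 0.72 and 0.97 for *Klf13*. For *Klf6* it was 0.51 and 0.45, and for *Klf2* 0.47 and 0.40. With 2 libraries per treatment and number, only large differences in response could be seen.

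**Figure D3:**
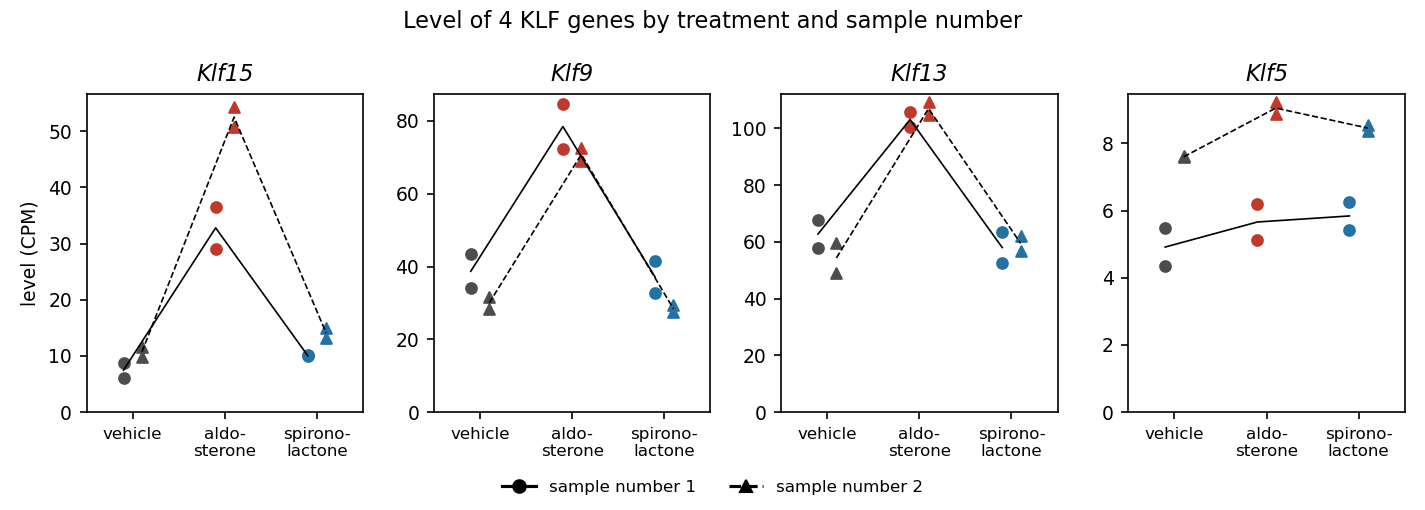
Level (CPM, linear axes from 0) of *Klf15*, *Klf9*, *Klf13* and *Klf5* in each library by treatment, with circles and solid lines for sample number 1 and triangles and dashed lines for sample number 2, where lines join the means of 2 libraries. *Klf15* and *Klf5* run higher in sample number 2 in all 3 treatments, and *Klf15*, *Klf9* and *Klf13* peak with aldosterone in both sample numbers.

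Genes related to the 10 were read from lists of family members, cofactors and genes that KLF factors are described elsewhere as regulating, and *Klf15* and *Klf9* had the largest changes in the family that passed the test. Of the other 7 family members, 0 passed in the comparison of aldosterone with vehicle (median log2 fold change -0.16). *Klf16* was the most abundant per kilobase of these (log2 fold change -0.17, adjusted p = 0.487 from limma). *Klf14*, at 9.31 ± 7.14 normalized counts with aldosterone and 22.4 ± 5.66 with vehicle, had a log2 fold change of -1.53, whose adjusted p from limma was 0.0968, and 0.0126 with a replicate block on the sample number. Of 7 SP factors found, which bind GC boxes with zinc fingers like those of the KLF factors, 0 were higher and 1 was lower. This was the bone factor *Sp7* (log2 fold change -0.90, adjusted p = 0.0129 from limma), and *Sp3*, the most abundant per kilobase, was at -0.04 (adjusted p = 0.735). Of 16 cofactors and regulators of KLF proteins, *Wwp1*, a ubiquitin ligase that targets KLF proteins, was higher by 0.58 (adjusted p = 4.58e-06) and *Hdac2*, a histone deacetylase of Sin3 complexes, was lower with a log2 fold change of -0.28 (adjusted p = 0.00197), while 14 did not pass, among them the most abundant per kilobase, *Ctbp1* (-0.04, adjusted p = 0.690, all from limma). *Sp7*, *Klf14*, *Wwp1* and *Hdac2* were named after their values were seen. For scale, 10.4% of all genes passed, and 17.7% of those that averaged 10 or more normalized counts. Whether these short lists differ from such shares was not tested, so the calls do not set the lists apart from other genes.

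Of 28 genes described elsewhere as regulated by a KLF factor, 26 were in the table, 7 were higher with aldosterone, 2 were lower and 17 did not pass, where 10.4% of all genes passed and 17.7% of those that averaged 10 or more normalized counts. The median log2 fold change of the list was 0.0087, and that of all genes was -0.0064. A replicate block on the sample number gave 9 higher and 3 lower, adding *Pparg* (adjusted p from limma 0.0697 to 0.00240), *Slc2a4* (from 0.0533 to 0.0323) and *Acta2*, the first 2 named after their values were seen. The shares of 10.4% and 17.7% are those without the block. The block also raised the number of genes that passed over all genes, as given below under the dependence on the processing, so the gain is not particular to this list. *Pdk4*, which restrains glucose oxidation, rose from 284 ± 29.0 to 1879 ± 82.4 normalized counts (log2 fold change 2.73, adjusted p = 6.08e-13 from limma). *Prodh*, the first enzyme of proline breakdown, rose from 22.2 ± 3.20 to 75.2 ± 12.8 (1.71, adjusted p = 6.88e-05), and the peroxiredoxin *Prdx6* rose from 2153 ± 199 to 4581 ± 399 normalized counts (1.09, adjusted p = 3.78e-08, both from limma). These were the 3 that passed both thresholds. The other genes that rose, named with the fallers after their values were seen, were *Ccn2* (0.82), *Lgals3* (0.79), *Ccnd1* (0.56) and *Bcat2* (0.54), where *Bcat2* encodes an enzyme of branched-chain amino acid breakdown and *Ccn2* the matricellular protein CTGF. *Thbd* and *S1pr1*, described as raised by Klf2 in endothelium and T cells, fell by 0.79 and 0.76 on the log2 scale. The most abundant per kilobase was *Acta2*, smooth muscle actin, with a log2 fold change of -0.33 and an adjusted p from limma of 0.204, or 1.75e-07 with a replicate block on the sample number. In the comparison of spironolactone with vehicle 0 genes passed in each of these lists. With a replicate block on the sample number *Ccn2* passed as higher (0.20) and *Sp7* as lower (-0.38), both with an adjusted p of 0.0445 from limma. The number of all genes that passed this fit is not given here, so these calls are not set against that share.

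**Figure D4:**
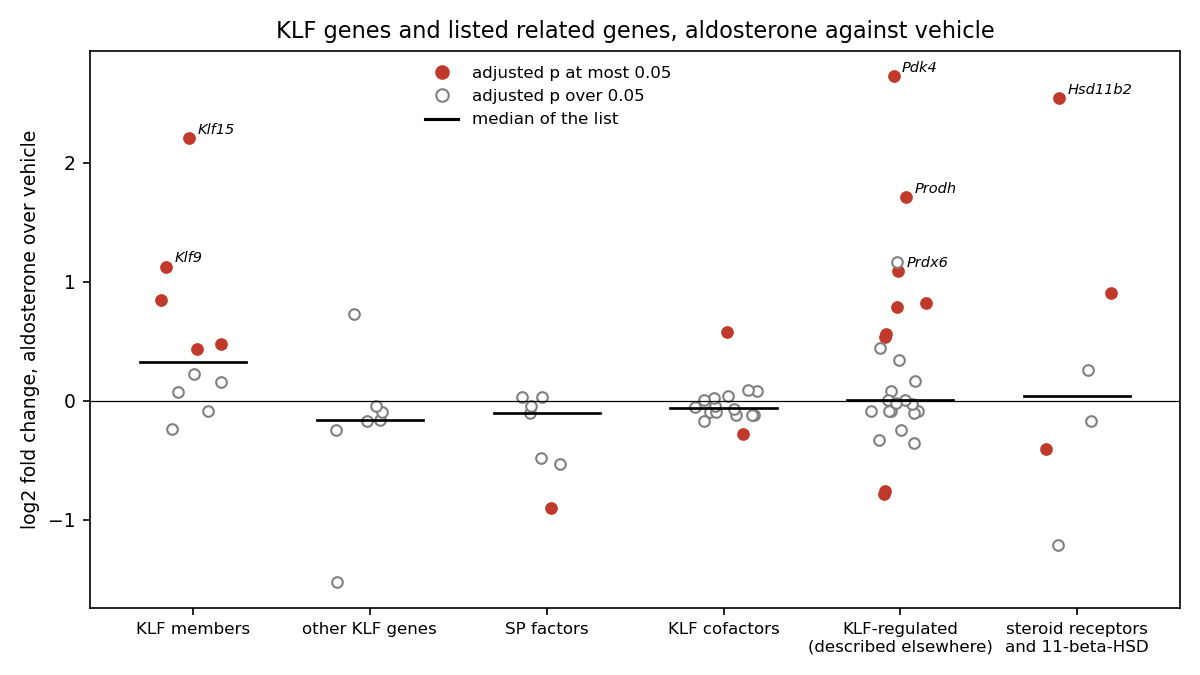
Log2 fold change of aldosterone over vehicle (log2(normalized count + 1) scale) for the 10 KLF genes and for the listed related genes, each point a gene. Filled points have an adjusted p of at most 0.05 and bars are list medians. The median of the 10 KLF genes is 0.33, and those of the other 5 lists lie between -0.16 and 0.04.

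All 5 listed genes known to respond to steroid receptors passed both thresholds as higher with aldosterone (*Zbtb16* 6.67, *Fkbp5* 4.26, *Tsc22d3* 2.69, *Sgk1* 1.98 and *Per1* 1.83 as log2 fold changes). Of all genes 1.4% did so. These 5 genes were chosen with earlier results of these data known, so they describe the response and do not test the treatment. Of 6 genes for steroid receptors and enzymes that convert glucocorticoids, *Nr3c1*, the glucocorticoid receptor and the most abundant per kilobase, fell by 0.41 (adjusted p = 6.48e-05 from limma). *Nr3c2*, the mineralocorticoid receptor, was at 14.5 ± 5.83 normalized counts with aldosterone and 37.5 ± 20.8 with vehicle (log2 fold change -1.21, adjusted p = 0.0853 from limma, or 0.00794 with a replicate block on the sample number). *Hsd11b2* rose from 6.11 ± 5.46 to 31.2 ± 10.3 normalized counts (2.54, adjusted p = 0.00518) and *Hsd11b1* from 32.6 ± 11.2 to 59.7 ± 8.51 (0.91, adjusted p = 0.0326, both from limma).

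The labelled cell type was checked against markers. The 6 fibroblast markers summed to 739587 to 845987 normalized counts in the aldosterone libraries and 913253 to 1004521 in the vehicle libraries, led by *Col1a1*. *Pdgfra* was higher with aldosterone (log2 fold change 0.91) and the other 5 did not pass, though all 5 passed as lower with a replicate block on the sample number. The muscle regulators *Pax7*, *Myod1* and *Myog* had means of at most 2.58 normalized counts in both groups, while *Acta1* fell by 1.26. *Myh3*, with a mean of 11.4 with aldosterone and 8.62 with vehicle, was higher but did not pass (0.49, adjusted p = 0.727 from limma). Macrophage markers summed to 62.8 to 93.0 and 61.0 to 91.4 normalized counts, with *Ptprc* and *Adgre1* means of at most 1.37. Most of the sum was *Csf1r* (mean 47.9 with aldosterone and 54.1 with vehicle) and *Cd68* (29.2 and 23.9), and neither passed. Endothelial markers, which bear on *Klf2* and *Klf4* since endothelium is rich in both, summed to 679 to 754 normalized counts with aldosterone and 473 to 533 with vehicle. Of these 5 markers, *Kdr* was higher (1.88, adjusted p = 0.00183 from limma). *Tek* made up most of the sum (0.23, adjusted p = 0.0694, or 0.0147 with a replicate block on the sample number, from limma). *Cdh5* (0.73, adjusted p = 0.358) and *Emcn* (0.68, adjusted p = 0.598, both from limma) had higher means with aldosterone but did not pass. *Pecam1*, at 2.85 ± 0.853 normalized counts with aldosterone and 6.57 ± 2.45 with vehicle, was lower but did not pass (-0.95, adjusted p = 0.253 from limma). Glial markers summed to 314 to 453 and 240.0 to 323, with *S100b* higher (0.50). The part of other cell types in the KLF changes was not tested.

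The genes most like *Klf15* and *Klf9* were sought among 12297 genes whose mean CPM came to 50 or more reads at the mean library size. They were found by Pearson's r of log2(CPM + 1) over the 12 libraries. For *Klf15* these were *Ccdc3* (r = 0.991), *Cped1* (0.989) and *Pim3* (0.988). *Cped1* averaged 86.3, 194 and 103 CPM and *Pim3* 25.8, 56.4 and 29.4 CPM in vehicle, aldosterone and spironolactone, so both were highest with aldosterone. For *Klf9* they were *Dtna*, *Ppfibp1* and *Wwp1* (all r = 0.983). *Wwp1* averaged 62.3, 93.2 and 61.8 CPM and *Dtna* 10.1, 25.2 and 10.2 CPM in the same order. That these genes were highest with aldosterone follows from choosing them by likeness to genes that rose with it. The libraries share treatments and plates, so r describes these 12 libraries only.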

How the data were processed

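The authors made poly(A) libraries, aligned the reads with HISAT2 and deposited 3 tables, each of a pair of treatments. The paper's methods name mm9, while the submitters' processing notes list HISAT2 2.0.5, featureCounts 1.5.0-p3 and mm39, and only 39 of 20676 genes in the tables had the start given by the mm9 annotation. Gene positions are therefore printed as deposited, and promoter sequences come from RefSeq (GRCm38.p6, 8 of 10 genes matched). Whether counting used the strand is not given in the sources used here. The deposited values are a signal, namely read counts per gene after division by the size factor that the authors fitted for the library, and are called normalized counts here. The tables also hold group means and the fold changes and p-values of the authors' own DESeq2 comparisons, which were not used.

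Values of 22 of 24 columns were whole multiples of a single step (100% within a tolerance of 0.0001), which gave back the reads, and the other 2 libraries' columns were read from their second table. Levels are CPM of these reads with TMM factors over the 12 libraries (edgeR 4.0.16), and per-kilobase levels use the deposited gene length. The median depth was 23833380 reads.

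The main test was limma 3.58.1 in R 4.3.3 with a variance trend on log2(normalized count + 1), treatment alone, for each pair and every gene, with Benjamini-Hochberg adjustment. A fold change on this scale understates the change of genes with low counts. A gene passed with an adjusted p no higher than 0.05, and the study's second threshold, a log2 fold change of 1 or more in either direction, was applied separately. Exact permutation tests were two-sided. The tests were checked on simulated independent libraries, without a shared deviation of same-numbered libraries. The check therefore does not cover p-values under the pairing of libraries described below.

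Same-numbered libraries of different treatments deviated together from their group means (mean r = 0.329, from 0.188 to 0.410 over 24 pairs and 15313 genes), whereas libraries with the same biological replicate number did not (mean r = -0.0051), so a fit with a replicate block on the sample number is given where it changes a call of the KLF genes or of a listed gene or count in the text. The KLF genes and the lists were chosen with earlier results of these data known. Genes of the lists are named if they passed both thresholds with aldosterone against vehicle or were the most abundant per kilobase in vehicle, and others are said to be named after their values were seen. Alternatives were DESeq2 1.42.0, edgeR and limma-voom on the reads, TMM and upper-quartile scaling, a pseudocount of 0.5, a filter at a mean of 10, both blocks, summed plates, all 12 libraries in a single fit, each library left out, and single sample numbers. The fit with summed plates held treatment alone, so it left out the pairing by sample number and is not a stricter form of the blocked fit.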

Additional observations from a re-analysis of the deposited data

Results flagged for a closer look

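Each KLF gene was checked in each treatment for a library set apart from the other 3 by Dixon's criterion at its 95% critical value (30 groups of 4), and chance marks about 1 group in 20. In 1 group a library stood apart, *Klf10* in vehicle replicate 3, which had 10.1 CPM, the lowest of the vehicle libraries, with a gap to the next library of 0.836 of the whole range. The coefficient of variation of *Klf10* in vehicle was 4.69%, against 12.2% with aldosterone and 12.5% with spironolactone.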

How the results depend on the processing

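Of 21 alternatives for each gene and comparison, which gave 630 values, 579 kept their direction and side of the threshold. *Klf15* and *Klf9* passed both thresholds, and *Klf13* and *Klf6* the adjusted p, in both comparisons with aldosterone under every alternative run except single sample numbers. Single sample numbers, an alternative chosen after seeing the data, left 2 libraries per treatment. With sample number 1 alone 0 KLF genes passed either rule in both comparisons with aldosterone, and with sample number 2 alone 3 passed the adjusted p against vehicle. Counts at the adjusted p ranged from 4 to 5 against vehicle and were 5 against spironolactone when each library was left out, and 2 genes passed both thresholds throughout. With a replicate block on the sample number the counts were 5 against vehicle and 6 against spironolactone, *Klf10* being added (adjusted p = 0.00868 from limma), and no other call of the 10 genes changed. The number of all genes that passed this fit against spironolactone is not given here, so the added call is not set against that share. Against spironolactone *Klf10* passed in 3 of the 21 alternatives, among them edgeR over all 12 libraries, and did not pass in the other 18. Those 18 included summed plates (adjusted p = 0.262 by edgeR), single sample numbers and each library left out (adjusted p from 0.0727 to 0.281 from limma). With both numbers as blocks, *Klf15* passed for spironolactone over vehicle, giving 1 gene in place of 0, where 77 of all genes were higher and 33 lower, and it did not pass in any other alternative run. Over all genes of aldosterone against vehicle, 1553 were higher and 1294 lower by limma at the adjusted p, 1637 and 1418 by edgeR on the recovered reads, 2371 and 2192 with the block, 558 and 331 with summed plates, 549 and 339 with sample number 2 alone and 15 and 2 with sample number 1 alone. Among genes that averaged 10 or more normalized counts, the largest absolute median log2 fold change of any comparison and fit was 0.0124.

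The direction turned only in genes that did not pass. For *Klf13* the log2 fold change of spironolactone over vehicle was -0.0022 with edgeR, -0.0077 with limma-voom, -0.0039 with upper-quartile scaling, -0.014 with summed plates, -0.0030 over 12 libraries and -0.12 with sample number 1 alone. In the same comparison sample number 1 alone gave -0.0013 for *Klf2*, -0.00067 for *Klf3* and -0.052 for *Klf10*, and sample number 2 alone gave -0.014 for *Klf4*, -0.032 for *Klf6* and -0.016 for *Klf7*. For *Klf5*, aldosterone over spironolactone was -0.040 with sample number 1 alone. Leaving out each library gave ranges of -0.096 to 0.19 for that value, and for spironolactone over vehicle -0.054 to 0.073 for *Klf2*, -0.030 to 0.042 for *Klf3*, -0.0035 to 0.039 for *Klf6*, -0.031 to 0.12 for *Klf7*, -0.19 to 0.047 for *Klf9* and -0.072 to 0.079 for *Klf13*. The cause was not tested. The fewest reads were those of *Klf5*, 106 to 277 per library.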
